A study of Mus musculus with 8 samples.

Results

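Genes of hepatic lipid uptake were examined in the livers of mice fed a liquid alcohol diet and of mice pair-fed a control diet. They comprise the receptors *Cd36*, *Vldlr*, *Lrp1* and *Scarb1*, the lipases *Lpl* and *Lipc*, the fatty acid binding proteins *Fabp1*, *Fabp2* and *Fabp4*, and the fatty acid transport protein *Slc27a2*. A gene was taken wherever the annotation of the array names a probe-set with its symbol and with no other symbol. Of the 10 genes, 9 had such a probe-set, 1 each, among 14860 genes of the array that had one. *Lipc*, hepatic lipase, was not analysed here because no probe-set carries its symbol in the annotation used. Both groups consisted of C57Bl6J males, wild type for the methyltransferase gene *Dnmt1*, that were 6 weeks old at the start. The 4 mice of the alcohol group (WA-811, WA-817, WA-833 and WA-836) received the Lieber DeCarli diet with 2.06% alcohol for 3 days, 4.18% for 4 days and 6.2% for 5 weeks, when alcohol supplied 35% of the calories. The final percentage is that of the array labels, and the methods of the study give a slightly higher one. The 4 mice of the control group (WC-820, WC-824, WC-834 and WC-840) received a liquid diet matched in calories, with maltose and dextrin, for 6 weeks. Total liver RNA of each mouse was read on 1 Affymetrix Mouse Exon 1.0 ST array, and the labels do not say which mice were fed as a pair.

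A hepatocyte takes up lipid by separate routes. Free fatty acids cross the membrane with the help of the scavenger receptor CD36 and of transport proteins of the SLC27 family, which also activate fatty acids to acyl-CoA, and in the cytosol they are bound by small fatty acid binding proteins. Lipoproteins are trimmed by lipases on the vessel wall and are then taken in whole by receptors of the LDL receptor family, such as VLDLR and LRP1, while SR-BI, the product of *Scarb1*, takes up cholesterol esters from HDL. *Cd36* and *Vldlr* are little expressed in healthy hepatocytes and are known to be higher in several forms of fatty liver, and *Fabp1* encodes the abundant binding protein of the liver while *Fabp2* is best known from the small intestine.

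All values are deposited log2 values, in which a difference of 1 is a doubling of the signal. Levels of different probe-sets cannot be set against each other, so that each gene is compared only with itself between the diets. Of the 9 measured genes, 8 passed a filter on low values that did not use the diets. At a Benjamini-Hochberg adjusted p under 0.05 (limma, over all probe-sets kept) 2 of these 8 rose on the alcohol diet, *Cd36* and *Vldlr*, where 10.2% of all probe-sets kept were called higher. *Vldlr* passed the filter only through its alcohol values, so that its place among the 8 is no support, and in a fit to all 23332 probe-sets its adjusted p was 0.0163 (limma). *Fabp2* was the 1 gene of the 8 that fell, where 5.98% of all probe-sets kept were called lower. The same 3 genes passed the thresholds of the study, an unadjusted P of 0.0001 and 1.5-fold, which 1.01% of the probe-sets kept passed as higher and 0.757% as lower. The groups did not overlap for 5 of the 8 genes, 2 higher and 3 lower on the alcohol diet, beside 15.5% and 8.14% of all probe-sets kept. The median difference of the 8 genes, alcohol minus control, was -0.13 (log2), beside 0.05 over all probe-sets kept, of which the 10th and 90th percentiles were -0.28 and 0.36. *Cd36*, *Vldlr* and *Fabp2* lay outside these percentiles, and *Lpl* lay just below the lower of them without being called.

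**Figure D1:**
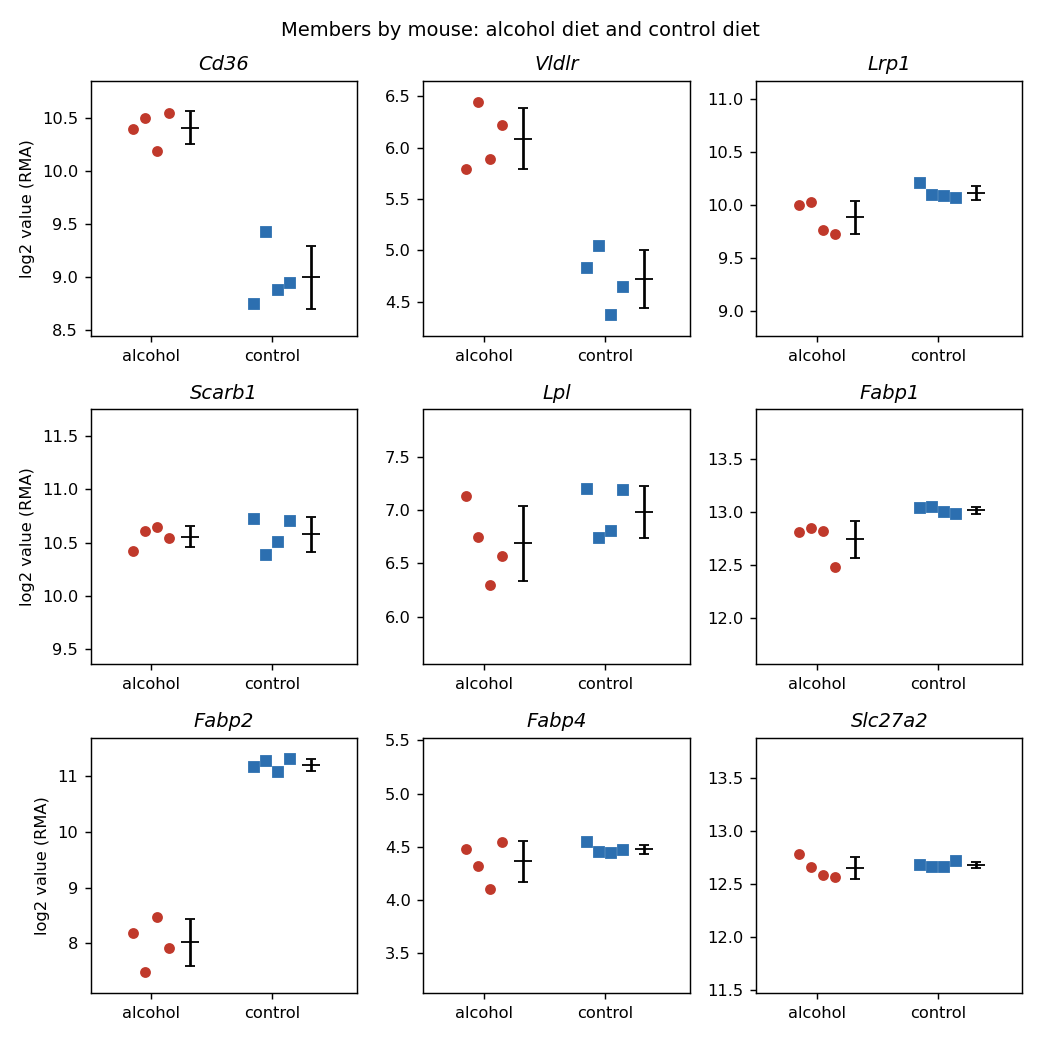
Log2 value (RMA) of each measured gene in each mouse, alcohol diet on the left (red circles) and control diet on the right (blue squares), with the mean and SD of the 4 mice beside the points and a vertical scale of its own for each gene. *Cd36*, *Vldlr* and *Fabp2* are separated by gaps of 0.77, 0.75 and 2.61 between the groups, *Lrp1* and *Fabp1* by 0.04 and 0.13, and the other 4 genes overlap.

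For orientation the 250 bases before the transcription start, from RefSeq on GRCm38.p6, are shown for the 3 genes that were called and for *Fabp1*, the relative of *Fabp2* that is abundant in liver. Windows of this length were found for 7 of the 10 genes. *Cd36* starts on the minus strand and its window is chr5:17835897-17836146. The first start of *Vldlr* has the window chr19:27216234-27216483 on the plus strand. *Fabp1* and *Fabp2* have the windows chr6:71199629-71199878 and chr3:122894822-122895071, both on the plus strand. Each is written 5′ to 3′ along its gene, and the capitals mark every match to the motifs searched on both strands.
Cd36: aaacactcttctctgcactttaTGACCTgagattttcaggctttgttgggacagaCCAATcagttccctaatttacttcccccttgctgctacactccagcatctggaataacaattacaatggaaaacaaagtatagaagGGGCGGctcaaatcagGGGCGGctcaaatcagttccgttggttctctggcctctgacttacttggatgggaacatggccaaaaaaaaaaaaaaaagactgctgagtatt
Vldlr: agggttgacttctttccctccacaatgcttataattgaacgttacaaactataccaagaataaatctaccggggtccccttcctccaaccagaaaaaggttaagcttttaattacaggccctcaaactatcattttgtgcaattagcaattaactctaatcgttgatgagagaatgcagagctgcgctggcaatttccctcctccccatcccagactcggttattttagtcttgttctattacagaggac
Fabp1: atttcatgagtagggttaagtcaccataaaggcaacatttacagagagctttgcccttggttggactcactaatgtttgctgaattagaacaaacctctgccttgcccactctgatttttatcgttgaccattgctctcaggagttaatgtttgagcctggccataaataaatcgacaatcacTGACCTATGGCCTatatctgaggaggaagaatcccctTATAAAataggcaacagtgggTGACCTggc
Fabp2: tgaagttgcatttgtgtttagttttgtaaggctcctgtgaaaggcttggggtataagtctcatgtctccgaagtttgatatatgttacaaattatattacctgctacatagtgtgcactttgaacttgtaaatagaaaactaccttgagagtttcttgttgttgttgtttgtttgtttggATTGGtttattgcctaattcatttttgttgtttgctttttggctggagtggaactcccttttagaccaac

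The motifs searched were the TATA box TATAAA (in 12.4% of 32817 windows of all genes), the nuclear receptor element AGGTCA (14%), a direct repeat of AGGNCA with 1 base between the copies (0.338%), the C/EBP and ATF4 element TGATGNAA (3.45%), the GC box GGGCGG (32.7%), the CCAAT box (33.8%) and the E-box CACGTG (6.02%). The *Cd36* window holds AGGTCA on the opposite strand at 228 to 223 bases before the start, a CCAAT box at 195 to 191, and GC boxes at 109 to 104 and at 93 to 88. The *Fabp1* window holds a TATA box at 30 to 25 and, on the opposite strand, AGGTCA at 67 to 62 and at 9 to 4. The match at 67 to 62 is 1 copy of a direct repeat at 67 to 55 on that strand. The *Fabp2* window holds a single match, a CCAAT box on the opposite strand at 70 to 66, and the *Vldlr* window shown holds none. The window of the second *Vldlr* start, not shown, holds on the opposite strand a C/EBP and ATF4 element at 200 to 193, a CCAAT box at 78 to 74 and a GC box at 42 to 37. These matches describe letters and are not evidence of binding.

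DNA methylation was a question of the study and takes place at CpG, so the CpG of the windows were counted. *Fabp2* has 1 CpG in its window, *Fabp1* 2 and *Cd36* 3, against a median of 6 over all windows, and 7.87% of all windows have fewer than *Fabp2*. The window of the second *Vldlr* start has 18 CpG, more than 78.3% of all windows, beside 5 in the window shown. *Lrp1* with 13 and *Slc27a2* with 19 are also above the median. The windows of the called genes thus lie on both sides of the median, and methylation itself is not measured by these arrays. By bisulfite assays, the study found no detectable methylation at the CpG island in the promoter or first exon of *Vldlr* on either diet. *Cd36* and *Fabp2* are not among the genes it names for these assays.

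*Cd36* encodes the scavenger receptor that binds long-chain fatty acids and oxidized lipoproteins. Its value was 10.39, 10.50, 10.19 and 10.55 in the alcohol mice WA-811, WA-817, WA-833 and WA-836, against 8.74, 9.42, 8.88 and 8.95 in the control mice WC-820, WC-824, WC-834 and WC-840. Every alcohol mouse was above every control mouse, and the control mouse WC-824 stood nearest to the alcohol group. The alcohol mice averaged 10.409 ± 0.16 and the control mice 8.999 ± 0.30 (SD, n = 4 each). *Cd36* rose by 1.41 ± 0.15 (log2, SE), which is 2.66-fold with a 95% interval of 2.11 to 3.34 (limma, adjusted p = 9.74e-04). It was the 35th largest positive difference among the probe-sets kept. A two-sided exact permutation test of the 8 mice gave 0.0286 for *Cd36*, the smallest p that 4 mice against 4 allow.

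*Vldlr* encodes the receptor for triglyceride-rich lipoproteins that carry apolipoprotein E. Its value was 5.80, 6.44, 5.89 and 6.23 in the alcohol mice, in the same order of mice, against 4.83, 5.05, 4.37 and 4.65 in the control mice. The groups did not overlap, and the spread within each diet was alike, with a mean of 6.09 ± 0.30 in the alcohol mice and 4.72 ± 0.28 in the control mice (SD, n = 4 each). *Vldlr* rose by 1.37 ± 0.18 (log2, SE), which is 2.58-fold with a 95% interval of 1.96 to 3.39 (limma, adjusted p = 0.00245). All control values lay under 5.56, the level that the fourth-highest value of a probe-set had to reach to be kept, while all alcohol values lay above it. Values near background can be compressed on arrays, so that the fold of *Vldlr* may be understated, which was not tested. With a filter on the mean, or with a level of 6, *Vldlr* was not kept and so not called, and in the fit of all probe-sets its adjusted p was 0.0163 (limma).

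In whole liver RNA, fewer cells of a type and less RNA per cell cannot be told apart. *Cd36* is also expressed by endothelial cells and macrophages, so markers of these cells were read beside it. The mean over 7 markers of sinusoidal and other endothelial cells was 7.55 to 7.92 in the alcohol mice, against 7.42 to 7.47 in the control mice. *Lyve1*, the hyaluronan receptor of sinusoidal endothelium, rose by 1.23 ± 0.22 and *Clec4g*, a lectin of the same cells, by 0.47 ± 0.09 (log2, SE; limma, adjusted p = 0.00812 and 0.00857). The 4 other endothelial markers kept differed by 0.14 (*Stab2*) to 0.26 (*Cdh5*, log2), all higher on the alcohol diet, and were not called. The groups did not overlap for 4 of the 6 endothelial markers kept, all higher, beside 15.5% of all probe-sets kept. *Rbp7* lay under the filter level on every array and differed by -0.30. The mean of 8 Kupffer cell markers was 7.70 to 8.24 in the alcohol mice and 7.70 to 8.30 in the control mice, with none of the 8 called. The 5 hepatocyte markers were not called either, with a mean of 11.68 to 11.81 in the alcohol mice and 11.61 to 11.71 in the control mice. Of the other marker lists, *Lrat* of stellate cells rose by 0.54 ± 0.11, *Reln* of the same cells fell by 0.34 ± 0.08 and the erythroid marker *Alas2* fell by 2.07 ± 0.32 (log2, SE; limma, adjusted p = 0.0114, 0.0208 and 0.00467). A probe-set shared by the globin genes *Hbb-b1* and *Hbb-b2* fell by 3.14 ± 0.58 (log2, SE; limma, adjusted p = 0.00889). Of 5 monocyte markers 1 was kept and was not called, and the 2 cholangiocyte markers were not kept. The part of these cells in the rise of *Cd36* and *Vldlr* was not tested.

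*Lrp1* encodes the large endocytic receptor that clears chylomicron remnants. It was at 10.005, 10.030, 9.769 and 9.728 in the alcohol mice, against 10.207, 10.097, 10.082 and 10.066 in the control mice. The alcohol mice all lay below the control mice, by a gap of only 0.04. The difference of -0.23 ± 0.09 (log2, SE; 95% interval -0.43 to -0.03) missed the threshold over all probe-sets (limma, adjusted p = 0.110). An exact permutation test of the 8 mice gave 0.0286, as it does for any gene whose groups do not overlap. Such a separation, lower on the alcohol diet, was seen in 8.14% of all probe-sets kept. With the arrays centred on their medians *Lrp1* was called, at -0.29 (limma, adjusted p = 0.0405). Of all probe-sets kept, 886 were called lower after this centring, beside 624 as deposited.

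*Scarb1*, the HDL receptor gene, was at 10.42, 10.61, 10.64 and 10.55 in the alcohol mice, against 10.72, 10.38, 10.50 and 10.70 in the control mice. The groups overlapped across most of their range. Its difference was -0.02 ± 0.10 (log2, SE; limma, adjusted p = 0.899), and the 95% interval of -0.24 to 0.19 leaves room for a small difference in either direction.

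*Lpl* encodes lipoprotein lipase, which frees fatty acids from circulating triglyceride and is low in the adult hepatocyte. It was at 7.14, 6.75, 6.30 and 6.57 in the alcohol mice, against 7.20, 6.74, 6.81 and 7.19 in the control mice. The 2 lowest values, of WA-833 and WA-836, belonged to alcohol mice, but WA-811 was close to the highest control mouse. The difference of -0.29 ± 0.18 (log2, SE; 95% interval -0.70 to 0.11) was not called (limma, adjusted p = 0.298).

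**Figure D2:**
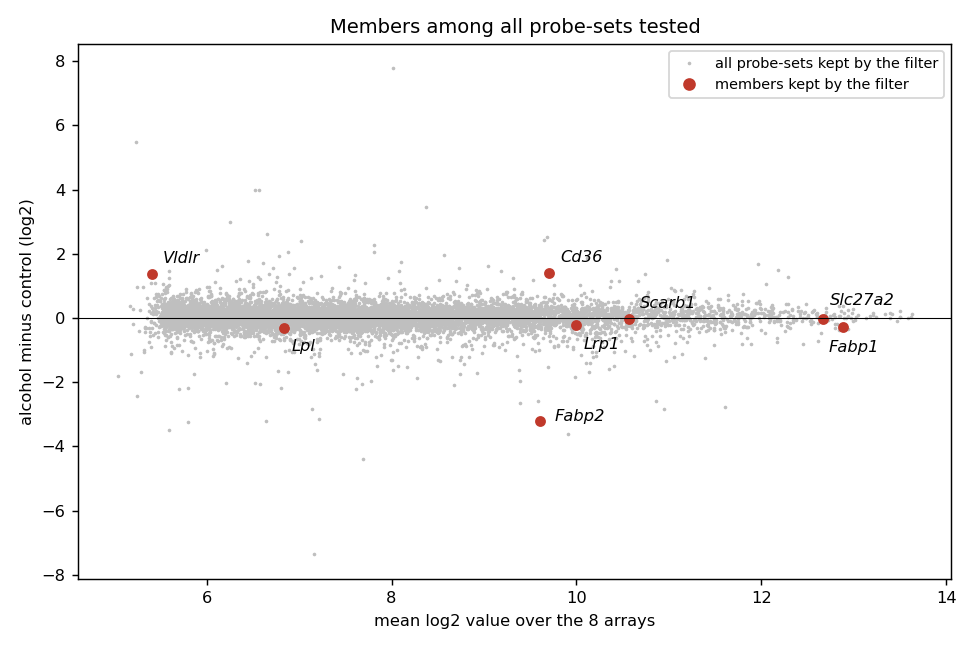
Difference between the diets (alcohol minus control, log2) against the mean log2 value over the 8 arrays, for every probe-set kept by the filter (grey) and for the 8 genes kept (red, named). *Cd36* at 1.41 and *Vldlr* at 1.37 lie above the bulk of the probe-sets and *Fabp2* at -3.20 far below it, while the other 5 genes lie between -0.29 and -0.02.

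*Fabp2* encodes the intestinal type of fatty acid binding protein. Its value was 8.18, 7.49, 8.47 and 7.91 in the alcohol mice, against 11.17, 11.28, 11.08 and 11.31 in the control mice. The groups lay 2.61 apart, and the alcohol mice were spread more widely, with a mean of 8.01 ± 0.42, against 11.21 ± 0.11 in the control mice (SD, n = 4 each). *Fabp2* fell by 3.20 ± 0.18 (log2, SE), which is 9.17-fold with a 95% interval of 6.89 to 12.2 (limma, adjusted p = 5.28e-05). Among the probe-sets kept, 5 had a larger negative difference. As *Fabp2* is best known from the small intestine, genes that mark enterocytes were read beside it. *Vil1*, *Cdh17* and *Lct*, of the microvillus, the lateral membrane and lactose digestion, lay under the filter level on every array. *Cdx2* was not kept by the filter, and only its value in the control mouse WC-834, 5.77, lay above that level. The mean of the 4 enterocyte markers measured was 3.66 to 3.73 in the alcohol mice and 3.69 to 3.81 in the control mice.

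*Fabp1* encodes the main fatty acid binding protein of hepatocytes. It was at 12.81, 12.85, 12.82 and 12.48 in the alcohol mice, against 13.04, 13.05, 13.00 and 12.98 in the control mice. All alcohol mice lay below all control mice, with WA-836 lowest and the other 3 alcohol mice close together. The difference of -0.28 ± 0.09 (log2, SE; 95% interval -0.48 to -0.07) missed the threshold (limma, adjusted p = 0.0701). It passed with a variance trend, with a further quantile normalization and with median centring, at adjusted p of 0.0403, 0.0370 and 0.0311 (limma). Of all probe-sets kept, 651, 838 and 886 were then called lower, beside 624 in the main fit.

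*Fabp4*, the binding protein of adipocytes and macrophages, was at 4.48, 4.32, 4.11 and 4.54 in the alcohol mice, against 4.54, 4.45, 4.44 and 4.47 in the control mice. All 8 values lay under the filter level. In the fit of all probe-sets its difference was -0.11 ± 0.10 (log2, SE; 95% interval -0.35 to 0.13; limma, adjusted p = 0.649). The adipocyte markers *Adipoq*, *Plin1*, *Lep* and *Retn* were also under that level on every array, with a mean of 3.47 to 3.87 in the alcohol mice and 3.38 to 3.67 in the control mice.

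The other binding proteins were not kept by the filter and are read from the fit of all probe-sets. *Fabp3* of muscle, *Fabp6* of the ileum, *Fabp7* of brain and *Fabp12* differed by -0.08, 0.21, -0.26 and -0.33 (log2), with adjusted p of 0.942, 0.541, 0.702 and 0.0898 (limma). A probe-set shared by *Pmp2* and *Fabp9*, of myelin and testis, differed by -0.08 (limma, adjusted p = 0.609). A probe-set that carries the symbols of both *Fabp5*, the epidermal type, and its copy *Fabp5l2* was at 3.58, 3.13, 3.24 and 3.12 in the alcohol mice, against 5.18, 5.40, 5.41 and 5.70 in the control mice. These groups lay far apart, and the probe-set fell by 2.15 ± 0.14 (log2, SE; limma, adjusted p = 0.00126), but the signal cannot be assigned to either gene and most of its values lay under the filter level. In that fit of all 23332 probe-sets 285 were lower at an adjusted p under 0.05.

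**Figure D3:**
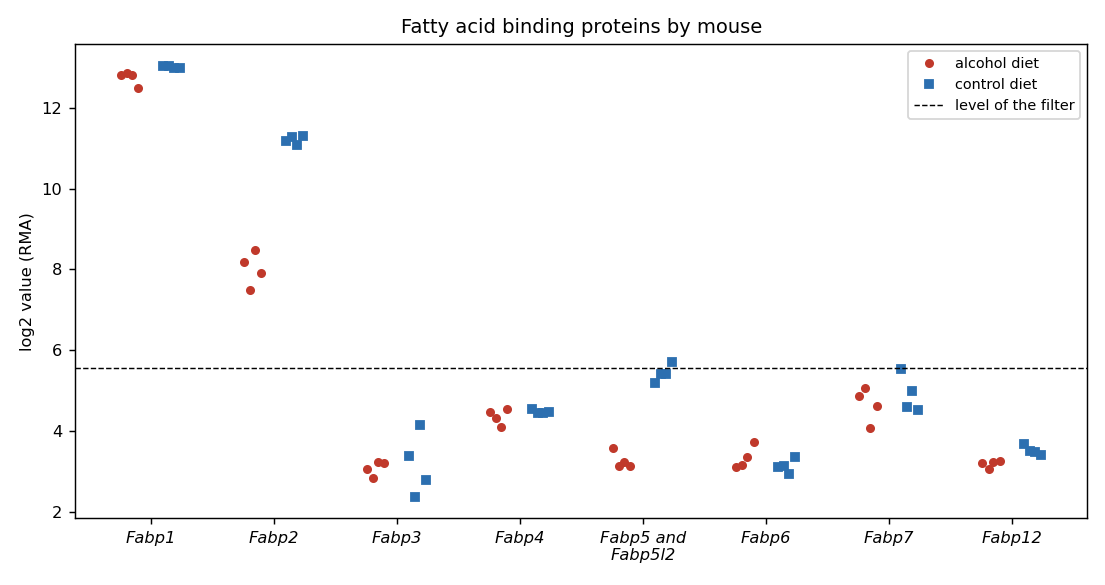
Log2 value (RMA) of the fatty acid binding protein probe-sets in each mouse, alcohol diet left (red circles) and control diet right (blue squares) within each gene. The dashed line is at the filter level of 5.56, and the probe-set shared by *Pmp2* and *Fabp9* is not drawn. *Fabp2* and the probe-set shared by *Fabp5* and *Fabp5l2* are lower in all 4 alcohol mice by 3.20 and 2.15 on average, and levels are comparable between diets but not between genes.

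*Slc27a2* encodes a transport protein that also activates very long-chain fatty acids. It was at 12.79, 12.66, 12.59 and 12.57 in the alcohol mice, against 12.68, 12.66, 12.66 and 12.72 in the control mice. The control mice lay within the range of the alcohol mice. Its difference was -0.03 ± 0.07 (log2, SE; limma, adjusted p = 0.810), with a 95% interval of -0.19 to 0.13.

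*Slc27a1*, a transport protein best known from muscle and fat, was at 6.97, 6.91, 6.84 and 6.99 in the alcohol mice, against 6.44, 6.36, 6.58 and 6.59 in the control mice. The groups did not overlap, and *Slc27a1* rose by 0.43 ± 0.08 (log2, SE), which is 1.35-fold (limma, adjusted p = 0.00797). *Slc27a4*, a transport protein of the same family, differed by 0.28 ± 0.09 and was not called (limma, adjusted p = 0.0665). These 3 were the transport proteins of the family with a probe-set of their own, and a test of whether their differences are unequal was not run.

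Other genes of lipid uptake were listed by role, 58 in all, of which 43 had a probe-set of their own and 34 were kept. Of these 34, 3 rose and 2 fell on the alcohol diet and 29 were not called, shares near the 10.2% and 5.98% of all probe-sets kept, with a median difference of 0.14 (log2) beside 0.05 over all probe-sets kept. Of 9 other lipoprotein and scavenger receptors kept, 1 rose. This was *Lsr*, the lipolysis-stimulated lipoprotein receptor, at 9.30, 9.44, 9.56 and 9.53 in the alcohol mice, against 9.15, 8.95, 9.04 and 9.11 in the control mice. It differed by 0.40 ± 0.08 (log2, SE; limma, adjusted p = 0.0129), and without the filter it was not called (adjusted p = 0.0511, limma). The scavenger receptors of macrophages *Msr1* and *Cd163* differed by 0.36 ± 0.13 and 0.47 ± 0.22 and were not called (limma, adjusted p = 0.0864 and 0.175).

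Of 3 partners of the receptors kept, 1 fell. *Pdzk1* encodes the adaptor that holds SR-BI at the hepatocyte membrane. It was at 8.48, 8.41, 8.36 and 8.32 in the alcohol mice, against 8.97, 8.87, 8.90 and 8.81 in the control mice. The groups were separate and narrow, and *Pdzk1* fell by 0.49 ± 0.07 (log2, SE; limma, adjusted p = 0.00348). *Scarb1* itself was not called, and the difference between these 2 genes was not tested.

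None of 7 lipases and regulators of lipolysis was called. *Gpihbp1*, which anchors lipoprotein lipase to the capillary wall, differed by 0.26 ± 0.12, and *Lmf1*, needed for its folding, by 0.19 ± 0.08 (limma, adjusted p = 0.161 and 0.118). *Angptl4*, an inhibitor of the enzyme, differed by 0.29 ± 0.23, and endothelial lipase *Lipg* by -0.30 ± 0.21 (limma, adjusted p = 0.422 and 0.361). Of the acyl-CoA carriers, *Dbi* and *Scp2* differed by -0.17 ± 0.08 and -0.46 ± 0.16 and were not called (limma, adjusted p = 0.197 and 0.0850).

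Of 9 transcription factors of lipid uptake genes, 1 rose and 1 fell. *Nr1i3* encodes CAR, a nuclear receptor that activates genes of drug metabolism in the liver. It was at 11.01, 11.02, 11.02 and 11.12 in the alcohol mice, against 10.46, 10.38, 10.32 and 10.56 in the control mice. The groups did not overlap, and *Nr1i3* rose by 0.61 ± 0.07 (log2, SE), which is 1.53-fold (limma, adjusted p = 0.00186).

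*Ppara* encodes the nuclear receptor that activates *Fabp1* and fatty acid oxidation. It was at 10.16, 9.98, 9.91 and 9.67 in the alcohol mice, against 10.43, 10.60, 10.42 and 10.66 in the control mice. Every alcohol mouse was below every control mouse, and *Ppara* fell by 0.60 ± 0.11 (log2, SE; limma, adjusted p = 0.00857). *Pparg*, a factor that raises *Cd36* in fatty liver, was at 7.63, 7.35, 6.88 and 7.06 in the alcohol mice, against 7.11, 8.24, 7.07 and 7.26 in the control mice. Its difference of -0.19 ± 0.27 (log2, SE; 95% interval -0.79 to 0.41) was not called (limma, adjusted p = 0.668). The control mouse WC-824 had both the highest *Cd36* and the highest *Pparg* of its group. Among the alcohol mice the highest *Pparg* was in WA-811, and the highest *Cd36*, 10.55, was in WA-836, where *Pparg* was 7.06. A link between these genes was not tested.

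**Figure D4:**
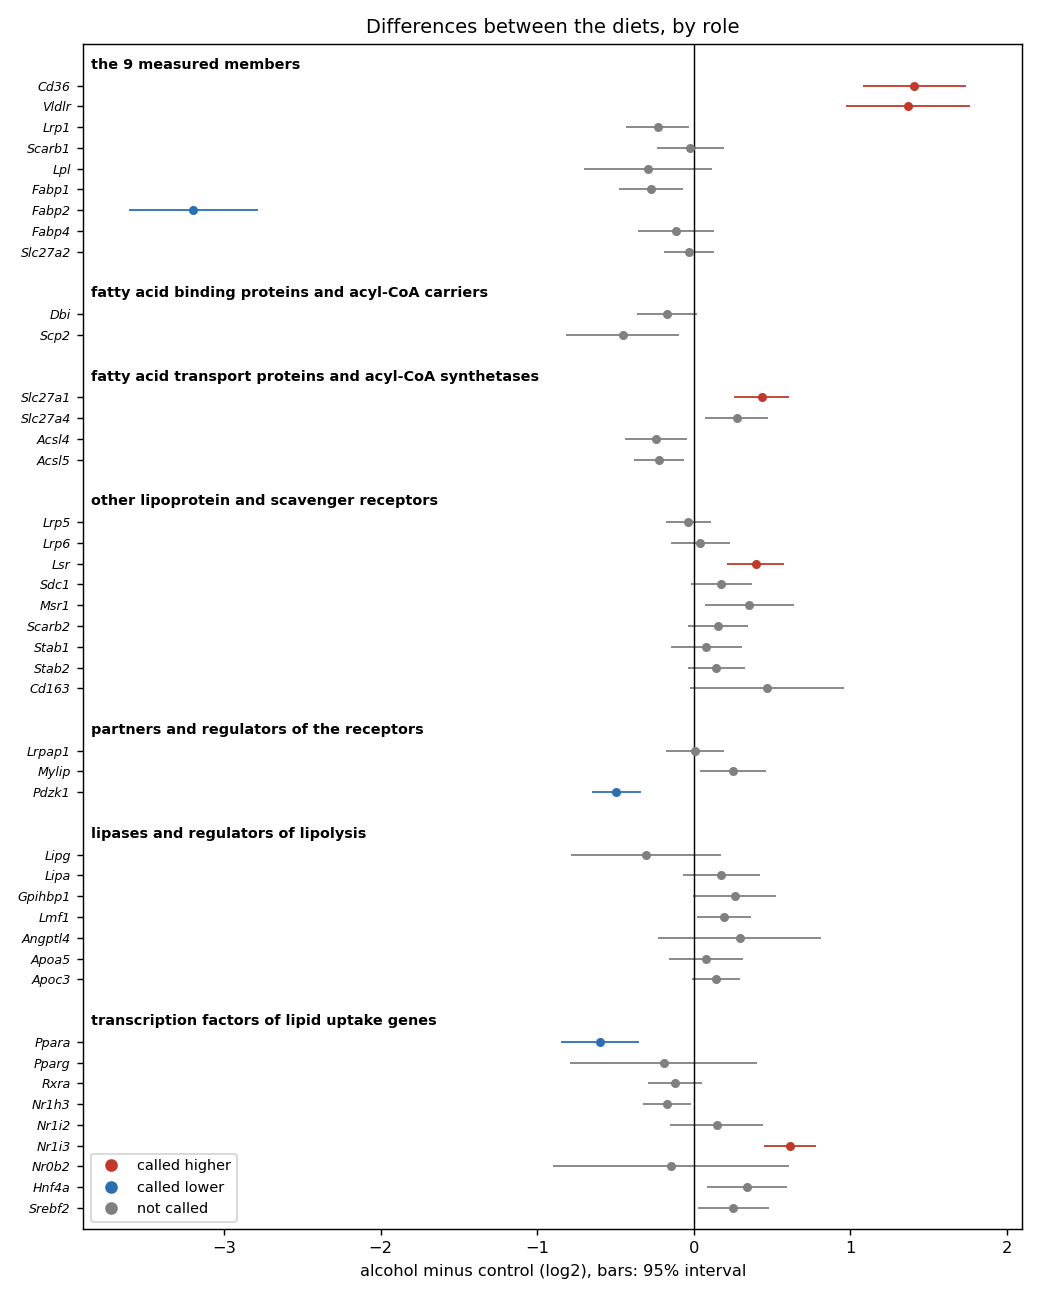
Difference between the diets (alcohol minus control, log2; points) with its 95% interval (bars) for the 9 measured genes and for the 34 other lipid uptake genes kept by the filter, ordered by role, with genes called higher in red, called lower in blue and not called in grey. *Fabp2* at -3.20, *Cd36* at 1.41 and *Vldlr* at 1.37 lie outside the range of the list, in which differences run from -0.60 (*Ppara*) to 0.61 (*Nr1i3*).

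Array medians were 5.10 to 5.14 in the alcohol mice and 5.04 to 5.08 in the control mice (log2), so that the offset between the diets was small beside the differences of *Cd36*, *Vldlr* and *Fabp2*. Over all probe-sets kept, 62.9% of the calls were higher on the alcohol diet, against 51.8% after quantile normalization and 45.1% after median centring. *Cd36* and *Fabp2* were called in the same direction under each of 18 alternatives, leaving out each mouse included, and *Vldlr* under all but the 2 filters that did not keep it. Their differences then ran from 1.32 to 1.55 for *Cd36*, from 1.25 to 1.47 for *Vldlr* and from -3.35 to -3.02 for *Fabp2*. Limma p-values set each difference against the spread between mice of a diet, pooled over both diets and drawn toward that of all probe-sets kept. The number of arrays, 4 for each diet, limits the precision.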

How the data were processed

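Total liver RNA of 8 mice was hybridized to Affymetrix Mouse Exon 1.0 ST arrays, with an array for every mouse. The deposited values are on the log2 scale and were made by the authors with RMA in the Affymetrix Expression Console (version not given in the sources used here), which corrects background, normalizes by quantiles and summarizes the probes. Of 23332 probe-sets, the annotation of the array gives 14996 a single symbol, 1019 several and 7317 none. A gene was read at its own probe-set of highest mean, and probe-sets with several symbols were assigned to no gene.

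Probe-sets were ranked by their fourth-highest value over the 8 arrays and the first 10430 were kept, which set a lowest level of 5.56. The study kept the same number by another rule, on the share of samples under a noise level, so that the probe-sets kept may differ. The diets were then compared with limma 3.58.1 in R 4.3.3 (2 groups, 6 residual degrees of freedom), and p-values were adjusted by Benjamini-Hochberg over the probe-sets kept, with calls under 0.05. For genes below the filter, values of a second fit to all probe-sets are given. Single genes were also compared by a two-sided exact permutation test over 70 arrangements of the mice. The model was tested on simulated data. Alternatives were other filters, array weights, a variance trend, robust or no moderation, median centring, a further quantile normalization, the mean over probe-sets, the study's thresholds and leaving out each mouse.

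The genes and lists were chosen with earlier results of these data known. All 10 genes were named, with up to 4 called genes of each role list, every FABP and SLC27 gene measured and any called marker of a cell type. Other genes were named after their values were seen. Promoter windows and gene neighbours came from RefSeq tables on GRCm38.p6.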

Additional observations from a re-analysis of the deposited data

Results flagged for a closer look

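Among 48 groups of 4 mice examined, 2 held a mouse that stood far from the other 3 by Dixon's criterion. Chance flags about 1 in 20 such groups. *Fabp1* was at 12.48 in the alcohol mouse WA-836, while the other 3 alcohol mice lay between 12.81 and 12.85. *Nr1i3* was at 11.12 in the same mouse, while the other 3 alcohol mice lay between 11.01 and 11.02.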

How the results depend on the processing

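*Cd36* and *Fabp2* kept their direction and their call under all 18 alternatives, with adjusted p (limma) from 4.26e-04 to 0.0132 and from 1.81e-05 to 0.00653, and *Vldlr* under all but 2, with 0.00239 to 0.0204. With a filter on the mean, and with a lowest level of 6, *Vldlr* was not kept, which left 1 gene called higher in each. *Fabp1* was called lower with a variance trend (-0.28), quantile normalization (-0.34) and median centring (-0.34), and *Lrp1* with median centring (-0.29). The genes called lower were thus 2, 2 and 3. In the same order, 651, 838 and 886 of all probe-sets kept were called lower, beside 624 in the main fit. The higher counts were 1123, 899 and 729, beside 1059. The sign of *Scarb1* differed under 3 alternatives. Over the probe-sets kept, 1059 were higher and 624 lower. The counts were 488 and 285 with no filter, 105 and 79 at the study's thresholds, and 382 lower with no moderation. Leaving out 1 mouse gave 595 to 1086 higher and 362 to 557 lower. The higher count fell by over 1.5-fold without WA-817 (695), WC-824 (595), WC-834 (614) and WC-840 (640), and the lower count without WC-824 (372) and WC-840 (362). In the list of 58 genes, 1 was higher and 0 lower at the study's thresholds, and 4 were lower with median centring. The median difference over the probe-sets kept was 0.05 as deposited, 0.01 after quantile normalization and -0.01 after median centring. Of the markers of cell types other than hepatocytes, 3 were higher and 2 lower under each of these scalings, a count added after seeing the data. Those kept were 8 of Kupffer cells, 6 endothelial, 5 of stellate cells, 1 of monocytes and 1 erythroid. As deposited, 10.2% and 5.98% of all probe-sets kept were higher and lower. No paired analysis was possible because the labels do not say which mice were fed as a pair. The causes were not tested. Low probe-sets such as that of *Fabp4* limit what can be seen, and 4 mice on each diet leave smaller differences unresolved.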

Other observations

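Among the alcohol mice, WA-817 and WA-836 had the highest *Cd36* (10.50 and 10.55), the highest *Vldlr* (6.44 and 6.23) and the lowest *Fabp2* (7.49 and 7.91). The same mice had the lowest *Alas2*, the erythroid form of the first enzyme of heme synthesis, at 7.09 and 6.86, against 8.26 and 8.34 in WA-811 and WA-833. The probe-set shared by *Hbb-b1* and *Hbb-b2* had another order, at 4.92, 4.20, 6.26 and 7.18 in WA-811, WA-817, WA-833 and WA-836, so that WA-836 was the highest there. WA-817 and WA-836 also had the highest mean of the endothelial markers, at 7.88 and 7.92, against 7.70 in WA-811 and 7.55 in WA-833. They were highest too for the Kupffer cell markers (8.21 and 8.24, against 8.19 and 7.70). The same held for the adipocyte markers under the filter level (3.86 and 3.87, against 3.47 and 3.57). The hepatocyte, monocyte, stellate cell, enterocyte and cholangiocyte lists had other orders. Among the control mice, WC-824 had the highest *Cd36* (9.42) but the lowest endothelial mean (7.42). The order in the alcohol mice was noticed in the values of 4 mice and was not tested.

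The SD was larger on the alcohol diet than on the control diet for 6 of the 8 genes kept (75.0%), beside 63.5% of all probe-sets kept. For *Fabp2* it was 0.42 in the alcohol mice and 0.11 in the control mice, and for *Fabp1* 0.17 and 0.03. *Cd36* and *Scarb1* had the smaller SD on the alcohol diet, at 0.16 and 0.10, against 0.30 and 0.16 on the control diet.

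The 2 nearest protein-coding genes on each side of the 10 genes, leaving out other fatty acid binding proteins, were 37, of which 27 had a probe-set of their own and 19 were kept. Of these 19, 1 was called higher and 0 lower, beside 10.2% and 5.98% of all probe-sets kept. *Slc18a1*, a vesicular amine transporter gene beside *Lpl*, rose by 0.85 ± 0.09 (log2, SE; limma, adjusted p = 0.00127), with 6.46 ± 0.19 in the alcohol mice and 5.61 ± 0.02 in the control mice (SD, n = 4 each). It was named after its values were seen.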
